A study of Nothobranchius furzeri with 16 samples.

Results

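Adipose tissue of 8 refed killifish was compared by age: 4 old fish (18 weeks by the labels) against 4 young fish (7 weeks). They are 8 of the 16 fish of the series and were chosen by age and feeding label alone. All were wild-type male turquoise killifish (Nothobranchius furzeri, an annual species with a short life) from the GRZ-AD line. They were housed singly, went without food for 72 h (3 days) and were then fed again for 24 h. The other 8 fish, 4 old and 4 young, were fasted for the same 72 h and not refed. No group was fed throughout, so the refed fish show the state 1 day after food returned and not a steady fed state. The authors sequenced total RNA after removing ribosomal RNA and deposited 1 normalized value per gene and fish.

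Adipose tissue stores triglyceride when food is present and releases fatty acids when it is not. Refeeding after a fast switches adipocytes from lipid breakdown to uptake and synthesis, and raises protein and RNA synthesis. In old vertebrates adipose tissue is known for a slower metabolic switch and for more immune cells and fibrosis. The question here was how far old and young fish differed in this refed state. The table names genes by identifier only and 0 of its identifiers matched the reference table of symbols, so the label adipose could not be checked against marker genes and pathways are not described. In a bulk sample, fewer cells of a type and less RNA per cell cannot be told apart.

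The 2 ages also differed in measures of the whole library. Summed over the 18606 fish genes, the values came to 14.3 to 17.0 M units (M, 1000000) in old refed fish, against 21.0 to 26.6 M units in young refed fish. Reads estimated from the step between low values, a rough measure, came to 20.4 to 36.2 M in old and 42.1 to 51.5 M in young refed fish, so depth and age cannot be told apart. Spike-in rows (ERCC, synthetic RNAs added as a reference) held 3.13% to 3.70% of the summed values in old and 2.63% to 2.90% in young fish. Their level, a mean log2 value over 42 rows, was lower in old fish by a log2 difference of -0.27. The sum, the estimated reads, the spike-in share and the spike-in level did not overlap between the ages (two-sided exact permutation p = 0.0286 each, the smallest 4 fish against 4 allow, and 0.0343 after Benjamini-Hochberg adjustment over 6 measures). The number of genes listed at 0 was 11 to 25 in old and 15 to 35 in young fish (exact permutation p = 0.143). With the 50 most abundant genes out of the sum, the spike-in share was 6.14% to 6.76% in old and 6.60% to 7.98% in young fish, which overlapped (exact permutation p = 0.0571).

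Old and young refed adipose tissue differed widely. In a limma fit of log2(value + 1) that held all 16 fish, 2424 genes (13.0%) were higher and 2805 (15.1%) lower in old refed fish at a Benjamini-Hochberg adjusted p under 0.05, together 5229 of 18606 (28.1%). A fit of the 8 refed fish alone called fewer, with 1641 higher and 2250 lower. In the fit of all 16 fish, 7341 genes (39.5%) had a p under 0.05 without adjustment. The median log2 fold change was 0.70 among the genes that rose and -0.53 among those that fell, against 0.04 over all genes. A change of at least 2-fold (log2 fold change of 1) was reached by 666 rises (3.58%) and 362 falls (1.95%). At the other end, 2017 called genes (38.6%) changed by less than 0.5 on the log2 scale. Of the called genes, 3995 (76.4%) had no overlap between the 4 old and the 4 young fish, and over all genes 4788 (25.7%) had none.

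The direction of these calls depended on the scale. On the deposited scale 46.4% of the called genes were higher in old fish. On log2 CPM, which divides by the sum of all genes, it was 97.4% (13188 higher and 352 lower). Set against the spike-in rows, it was 88.6% (6560 and 846). These scales moved the median gene to 0.63 and 0.31. With the 50 most abundant genes kept out of the total, the log2 CPM split was 62.5% (3418 and 2050) and the median 0.12. With every fish set to its median gene on log2 CPM, an alternative chosen after seeing the data, 1934 genes were higher and 3261 lower. Directions given here are therefore those of the deposited scale, on which the median gene had a log2 fold change of 0.04.

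Falls were called more often among abundant genes, and rises were called at all levels. When the genes were split into 5 equal classes by their mean in the refed fish, the share called lower was 2.1%, 7.04%, 14.8%, 21.9% and 29.5% from the lowest to the highest class. The share called higher was 9.51%, 14.8%, 14.6%, 13.7% and 12.5%. The share called also depends on how precisely a class was measured, which was not compared. The median log2 fold change of a class followed the same order, with 0.19 in the lowest (means up to 41.8 units) and -0.08 in the highest (means over 518 units). Among the 9319 of 18606 genes that reached 10 CPM in at least 4 fish, 1468 rose and 2277 fell. Whether depth has a part in the rises of low genes was not tested.

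**Figure D1:**
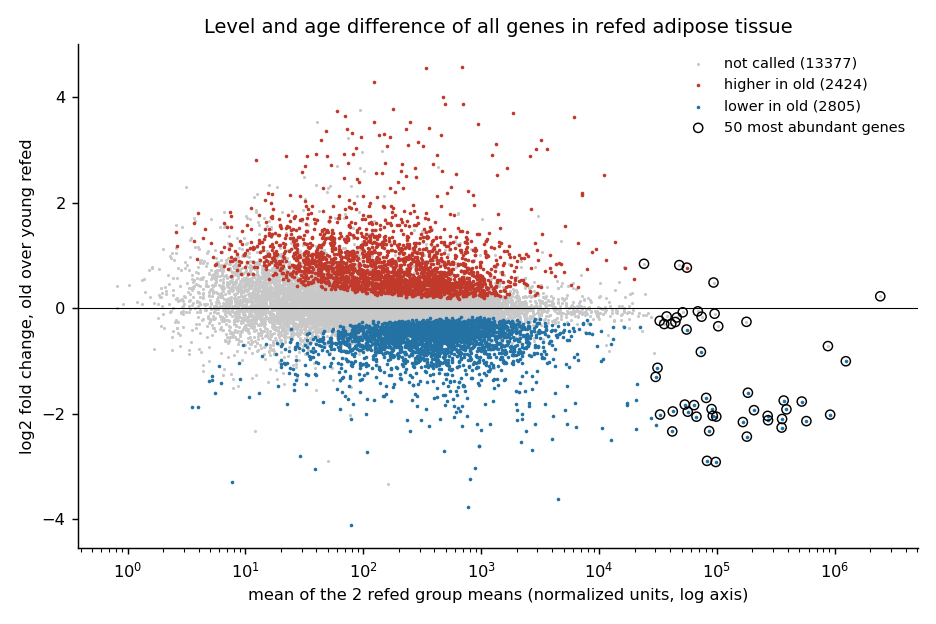
Each point is a gene. The x axis gives its level in refed fish (normalized units, log axis) and the y axis its log2 fold change in old over young refed fish. Red and blue points passed the test (2424 higher, 2805 lower), grey ones did not, and circles mark the 50 most abundant genes, whose median is -1.73.

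The 2 ages formed separate groups across the transcriptome. The root mean square difference of log2 values between an old and a young refed fish was 0.664 to 0.802, against 0.524 to 0.633 between 2 old and 0.464 to 0.516 between 2 young refed fish. On the second principal component (17.7% of the variance over 16 fish), old refed fish scored -41.0 to -33.2 and young refed fish 19.9 to 44.9. On the first (35.8%), which set refed apart from fasted fish, old refed fish scored -29.4 to -16.6 and young refed fish -63.3 to -39.9. Old and young fasted fish scored 12.0 to 33.2 and 41.2 to 48.2 there, so the old refed and old fasted fish lay closer together than the young ones did. Every pair of old refed fish was thus further apart than every pair of young refed fish, while the median SD of a gene between fish was 0.206 in old and 0.200 in young fish on the log2 scale. The SD was larger in old fish for 52.1% of genes, and for 50.5% of the 11736 genes with a mean of at least 100 units. On the third component old refed replicate 3, the fish with the fewest estimated reads, scored 44.5. The other old refed fish scored -13.6 to 9.9 there. Young fasted replicate 4, with 40.1 M estimated reads, scored 49.1. When old refed replicate 3 was left out, 2314 genes rose and 2505 fell.

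Among genes past the test with a mean of at least 100 units, no overlap and no row of identical values, 1106 rose and 2133 fell. The largest rise was that of ENSNFUG00015003502, which had 270, 1500, 398 and 3050 normalized units in old refed fish, against 76.5, 10.2, 8.94 and 177 in young refed fish. Its old values spanned a wide range, with replicates 2 and 4 far above replicates 1 and 3. All of them lay above every young value, as the rule of no overlap requires. It rose by a log2 fold change of 4.57 (limma, standard error 1.03, adjusted p = 0.00415). ENSNFUG00015001249 followed, with 434, 236, 84.1 and 179 units in old refed fish, against 10.9, 6.45, 2.62 and 33.7 in young refed fish. Here replicate 1 was the highest old fish and replicate 3 the lowest, an order unlike that of the first gene. It rose by 4.28 on the log2 scale (limma, standard error 0.76, adjusted p = 0.00082). Both passed as higher on every scale tried and with any 1 refed fish left out. They were chosen as the largest rises in these same fish, so this adds no separate support. Both reached the mean of 100 units through the old fish, with young refed means of 68.1 and 13.4.

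The largest fall was that of ENSNFUG00015021982, which had 64.8, 100, 114 and 53.3 units in old refed fish, against 297, 1830, 932 and 2800 in young refed fish. The spread here lay in the young fish, all of which had more than every old fish by the rule of no overlap. Its change was -3.77 on the log2 scale (limma, standard error 0.62, adjusted p = 0.000484). ENSNFUG00015003575 had 553, 1310, 567 and 473 units in old refed fish, against 7670, 8990, 6070 and 10500 in young refed fish. Old replicate 2 was set off from 3 closely placed old fish, and it too lay under the lowest young fish, as the same rule requires. Its change was -3.61 on the log2 scale (limma, standard error 0.38, adjusted p = 1.78e-05).

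**Figure D2:**
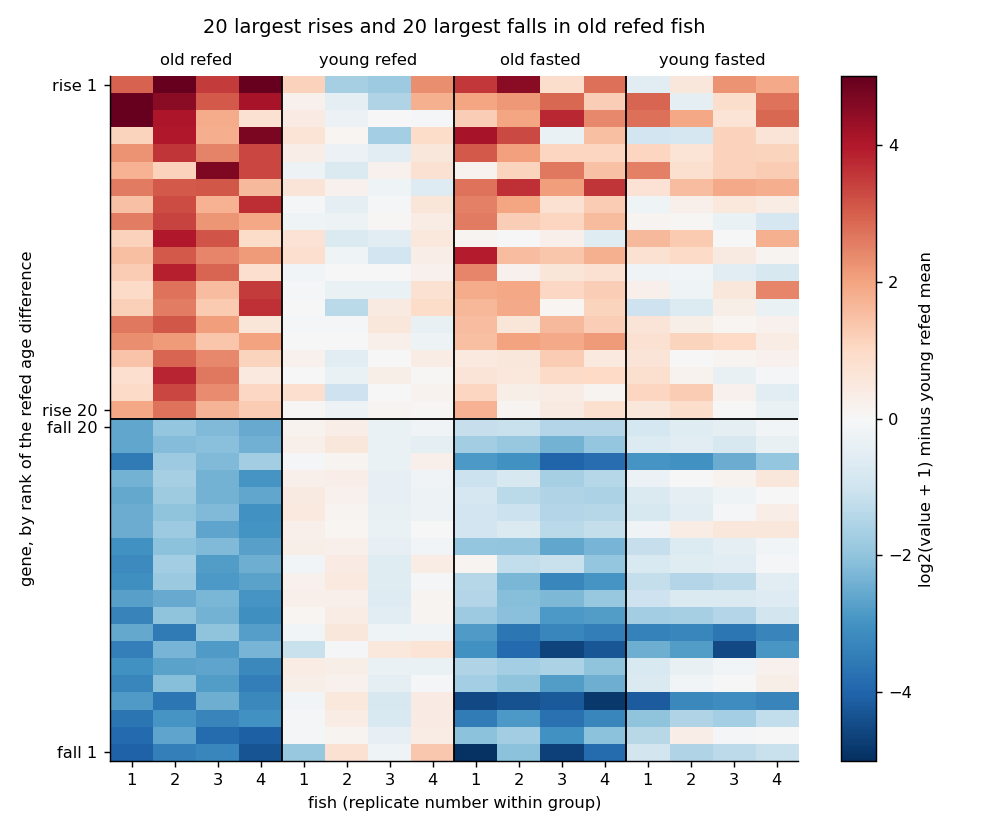
Rows are the 20 largest rises and the 20 largest falls among genes of at least 100 units with no overlap, columns the 16 fish by group, and colour the log2(value + 1) minus the mean of young refed fish, with colours ending at -5 and 5. In the rises the colour differs among old refed fish (median SD 1.12), in the falls less so (0.51). Between old and young fasted fish, 19 of the 20 falls and 17 of the 20 rises keep their sign. By sign alone, 50.3% of all genes were lower and 49.7% higher in old fasted fish. The test in fasted fish called 15 of these falls and 3 of these rises. Over all genes it called 3.98% lower and 5.57% higher.

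In the 20 largest rises by the same rule (log2 fold changes 1.90 to 4.57), the median SD between fish was 1.12 in old and 0.53 in young refed fish on the log2 scale. Old replicate 2 was the highest old fish for 10 of them, and replicates 4 and 1 were the lowest for 9 and 8. In the 20 largest falls (-3.77 to -2.31), the median SD was 0.51 in old and 0.39 in young fish. The rule sets part of this, since rises can reach a mean of 100 units through the old fish alone and the falls reach higher means (up to 179000 units, against 10900 in the rises). Over all genes, a gap between the groups was counted more often for falls. The lowest young fish had at least 2 times the value of the highest old fish for 83 genes, and the lowest old fish at least 2 times the highest young fish for 15 (1 unit added to each value). At 4 times, the numbers were 4 and 0.

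**Figure D3:**
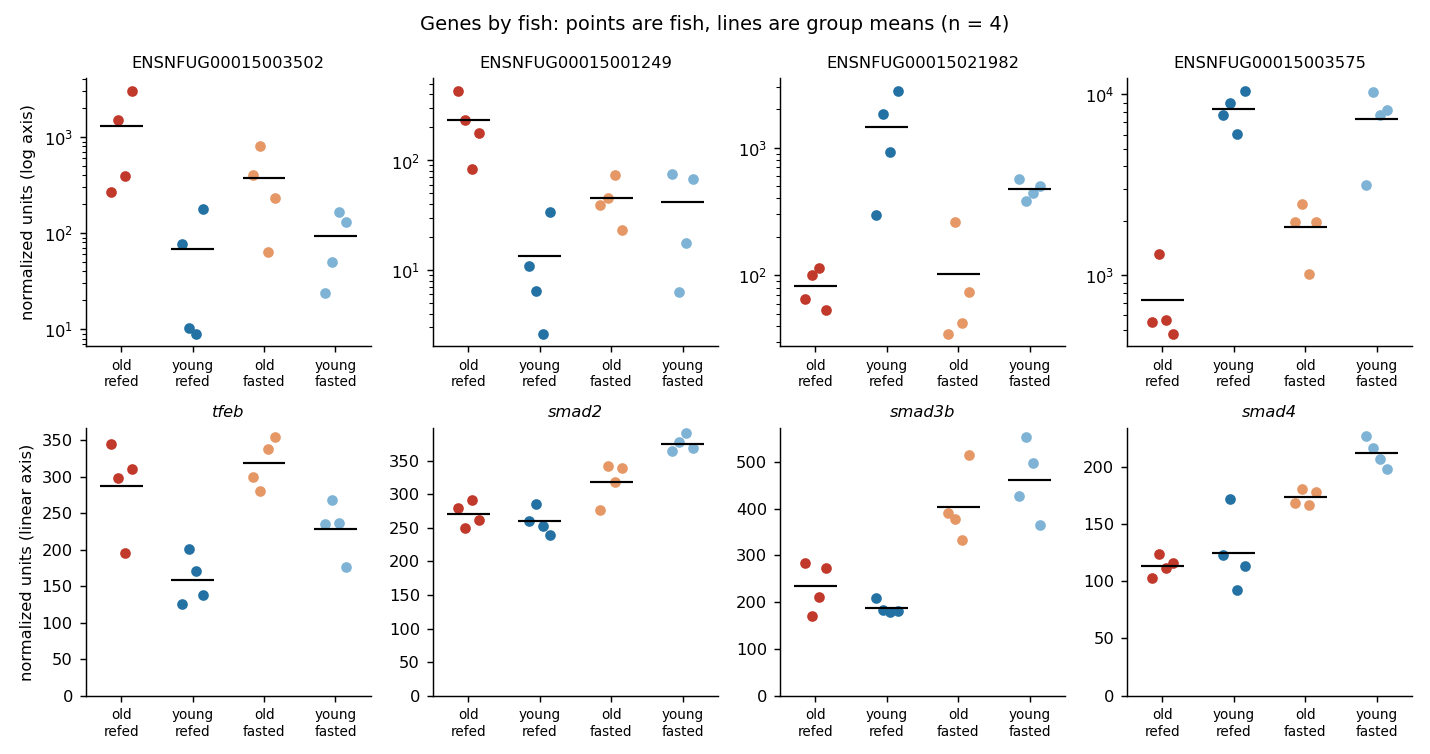
Normalized units of 8 genes by fish (points) with group means (lines, n = 4 each). The upper panels, on a log axis, hold the 2 largest rises and 2 largest falls among genes chosen to have no overlap between old and young refed fish. The lower panels, on a linear axis from 0, hold tfeb, smad2, smad3b and smad4, whose refed values overlap.

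Most of the 50 most abundant genes fell. The 50 genes with the highest mean over all 16 fish held 48.8%, 50.7%, 45.0% and 44.9% of the summed values in old refed fish, against 67.2%, 65.8%, 57.7% and 61.6% in young refed fish. Every old fish was below every young fish. Of these 50 genes 32 were lower and 1 was higher in old fish, beside 15.1% lower and 13.0% higher over all genes. In the highest of the 5 abundance classes, 29.5% were lower and 12.5% higher. The median log2 fold change of the 50 was -1.73, beside 0.04 over all genes. The ranking used a mean that includes the young fish, so a gene can enter through its young values alone. Part of the lower share and of the falls may follow from that choice. The 32 falls ran from -2.91 to -0.40 on the log2 scale, with 27 of them at -1.5 or lower. On log2 CPM 29 were lower and 13 higher, beside 352 lower and 13188 higher of all 18606 genes. With the spike-in rows as the scale 31 were lower and 2 higher, beside 846 and 6560 of all genes. The 32 genes together summed to 2.42 to 4.30 M units in old and 8.73 to 13.5 M units in young refed fish. All genes outside the 50 summed to 7.85 to 8.59 M units in old and 8.73 to 9.03 M units in young refed fish. In fasted fish 22 of the 50 were called lower and 1 higher in old fish, beside 3.98% and 5.57% over all genes. Their median log2 fold change there was -0.86. The age difference was lower in refed than in fasted fish for 9 of the 50 and higher for 0, beside 9.77% and 4.37% of all genes. The 50 held 53.5% to 58.6% of the summed values in old and 66.6% to 68.6% in young fasted fish.

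The 32 genes also moved together between fish of one age. In old refed fish, replicate 2 was above the group mean for 32 of 32 genes and replicate 4 for 1, with mean deviations of 0.48 and -0.48 on the log2 scale. In young refed fish, replicate 1 was above it for 32 and replicate 3 for 0, with mean deviations of 0.29 and -0.33. Over the deviations of all 16 fish from their group means, 20 of the 32 genes had a Pearson correlation of at least 0.9 with the mean profile of the 32 to which they belong. Outside the 50, 10 of 18556 genes did so, of lower mean levels (491 to 27700 units). Of these, 10 of 10 were called lower in old refed fish, with a median log2 fold change of -1.94. The share called lower in old refed fish was 15.1% over all genes and 29.5% in the highest of the 5 abundance classes. In fasted fish 8 of the 10 were called lower in old fish, beside 3.98% over all genes. Their median log2 fold change there was -0.83. The profile that the 10 genes follow was itself built from genes called lower. These correlations across fish describe shared movement and carry no test. Which cells these RNAs come from was not tested, since the genes have no names here.

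The single most abundant gene did not follow them. It held 19.3%, 15.5%, 11.9% and 18.5% of the summed values in old refed fish, against 8.34%, 10.4%, 6.68% and 11.2% in young refed fish. As a share it was higher in every old fish. In normalized units its values overlapped, and the log2 difference of 0.23 did not pass (limma, standard error 0.55, adjusted p = 0.793), so the larger share went with the smaller total. The second most abundant gene was lower in old fish, by a log2 difference of -1.01 (limma, adjusted p = 0.0434).

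**Figure D4:**
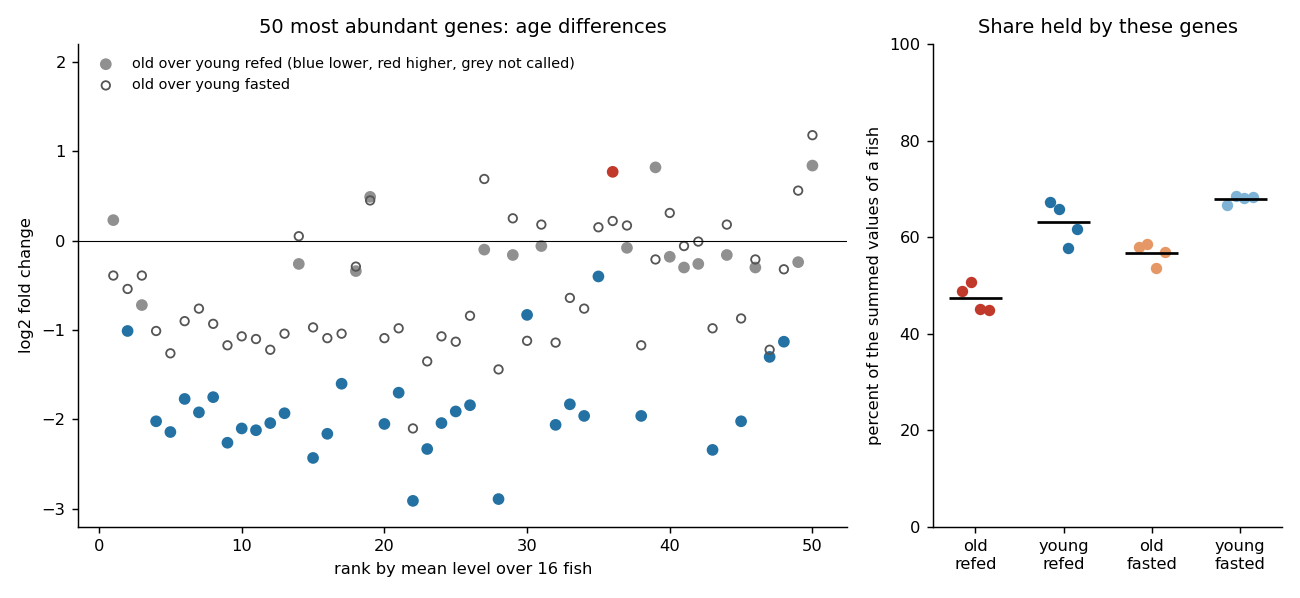
Left, log2 fold changes of the 50 most abundant genes by rank, old over young refed (filled) and old over young fasted (open). Right, the share of a fish's summed values held by these genes (points are fish, lines are means, n = 4 each), which is lowest in old refed fish at 44.9% to 50.7%.

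The fasted fish, which share no animal with the refed ones, gave a second look at the same age contrast. Their libraries differed by age in the same direction as those of refed fish. Estimated reads came to 32.8 to 38.3 M in old and 40.1 to 50.9 M in young fasted fish. Summed values were at most 21.3 M units in old and at least 24.5 M units in young fasted fish. Whether depth has a part in what the 2 contrasts share was not tested. In fasted fish 1037 genes (5.57%) were higher and 740 (3.98%) lower in old than in young fish, together 1777 (9.55%). The log2 CPM scale gave 8609 rises and 147 falls there, and the spike-in scale 6768 and 161. The SD of the log2 fold changes over all genes was 0.55 in refed and 0.39 in fasted fish. Among the genes that fell at least 4-fold in old refed fish (log2 fold change of -2 or lower), 55 of 56 were also lower in old fasted fish, with a median log2 fold change of -2.24 in refed and -1.10 in fasted fish. Of these 56 genes, 21 were among the 50 most abundant or followed the shared profile of their falls at a correlation of at least 0.9. The 56 are therefore not independent of each other. Among the genes that rose at least 4-fold, 73 of 87 were also higher in old fasted fish, with medians of 2.80 and 0.91. Over all genes 50.3% were lower and 49.7% higher in old fasted fish. For all called genes the same direction was less frequent, at 1700 of 2424 rises (70.1%) and 1504 of 2805 falls (53.6%). These shares moved with the scale: on log2 CPM they were 93.7% and 63.6%, beside 89.1% higher and 10.9% lower over all genes. The called genes of both contrasts included 345 shared rises, which are 14.2% of the refed and 33.3% of the fasted rises, and 330 shared falls, 11.8% and 44.6%. In old fasted fish 15 of the 2424 refed rises were called lower and 138 of the 2805 refed falls called higher. Over all genes 3.98% were called lower and 5.57% higher there, so for the falls the opposite call was about as frequent as over all genes. Across all genes the 2 age differences had a Pearson r of 0.263 and a Spearman rho of 0.139, with genes not being independent replicates.

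**Figure D5:**
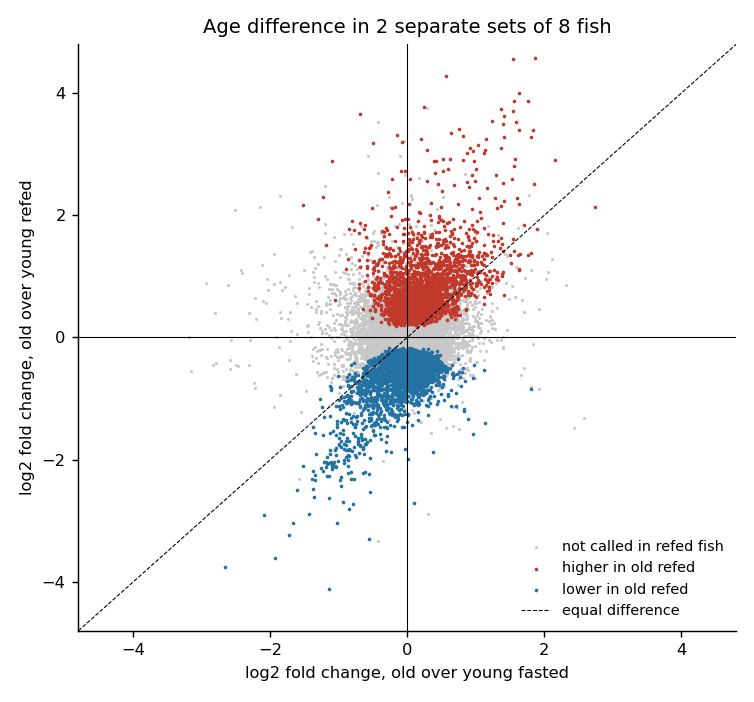
Each point is a gene, with its log2 fold change of old over young fish when refed (y axis) and when fasted (x axis). The dashed line marks equal differences. The large falls in old refed fish (blue) lie at the lower left, where 55 of 56 genes with a log2 fold change of -2 or lower were also lower in old fasted fish.

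The age difference itself changed with feeding for 2632 genes (14.1%), of which it was higher in refed than in fasted fish for 814 (4.37%) and lower for 1818 (9.77%). On log2 CPM it was 1406 genes (1088 and 318), and with the spike-in rows as the scale 1440 (289 and 1151). Of the 2805 genes lower in old refed fish, 1412 (50.3%) passed this test as lower in refed than in fasted fish, and of the 2424 higher ones 536 (22.1%) passed as higher. Both tests use the same refed fish. For the 1412 genes the median level relative to young refed fish was -0.54 in old refed, -0.84 in old fasted and -0.94 in young fasted fish on the log2 scale. For the 536 genes it was 0.68 in old refed, 0.66 in old fasted and 0.76 in young fasted fish. All of these values are set against the same 4 young refed fish, on which the genes were also chosen, so they are a description only. For the called genes that did not pass the test of the difference, the medians were 0.70 in old refed, 0.63 in old fasted and 0.35 in young fasted fish (1888 rises), and -0.51, -0.51 and -0.27 in the same groups (1393 falls). Of the named genes, ENSNFUG00015001249 averaged 233 units in old and 13.4 in young refed fish, and 45.4 in old and 41.7 in young fasted fish (difference of the age effects 3.72 on the log2 scale, adjusted p = 0.0322 from limma). ENSNFUG00015021982 averaged 83.0 units in old and 1460 in young refed fish, and 103 in old and 476 in young fasted fish. Its fall was called in fasted fish too (limma, log2 difference -2.66, adjusted p = 0.0185), and the difference of the age effects, -1.10, did not pass (95% confidence interval -2.98 to 0.77, adjusted p = 0.403 from limma).

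Of the 4 genes that the study names in these fish, tfeb alone passed the limma test on the deposited scale. The gene tfeb, whose protein switches on genes of lysosomes and autophagy, had 345, 298, 195 and 310 units in old refed fish, against 125, 201, 171 and 138 in young refed fish. One old fish, replicate 3, lay within the young range, and the exact permutation test over the 8 refed fish gave p = 0.0571. In the limma fit tfeb rose by 0.84 on the log2 scale (standard error 0.18, adjusted p = 0.00319), rank 1229 of 18606 by size of rise. It passed at an adjusted p under 0.05 in the 15 other fits run and with any 1 refed fish left out. In fasted fish its log2 difference was 0.49 (limma, 95% confidence interval 0.10 to 0.87, adjusted p = 0.102). The difference of the age effects, 0.36, did not pass (limma, 95% confidence interval -0.19 to 0.90, adjusted p = 0.353). For smad2 and smad3b, which encode receptor-activated transducers of TGFβ signaling, and for smad4, which encodes their common partner, the differences did not pass on the deposited scale. The log2 fold changes were 0.06 for smad2 (95% confidence interval -0.11 to 0.24), 0.29 for smad3b (-0.07 to 0.65) and -0.10 for smad4 (-0.39 to 0.20). The exact permutation test gave p = 0.429, 0.229 and 0.743 in the same order. On log2 CPM all 3 passed as higher, at 0.66, 0.89 and 0.50, beside a median of 0.63 over all genes, and with the spike-in rows as the scale smad2 (0.33) and smad3b (0.56) passed, beside a median of 0.31.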

How the data were processed

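Adipose RNA of 16 killifish was measured, and columns were matched to fish by column name and sample title. The authors removed rRNA and tRNA reads, pseudo-aligned the rest to Nfu_20140520 with kallisto 0.45.0 and compared groups with DESeq2 1.24.0. What was deposited is 1 normalized signal for each gene in each fish, never whole counts, and how it was scaled is not stated in the sources used. Whole reads were not recovered, so depth is an estimate (66.3% to 85.8% of low values within 0.1 of a step) and counting error has no interval.

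limma 3.58.1 under R 4.3.3 fitted log2(value + 1) of 18606 genes over 4 groups, with eBayes and a trend. ERCC rows (74) were kept out. Exact permutation tests were two-sided. The fit was tested on simulated data, drawn for each gene independently and with no difference in depth. That simulation therefore does not cover depth or genes that move together. Plots used matplotlib 3.10.9 with Python 3.11.15.

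The identifiers of tfeb and the 3 smad genes came from matching z-scores of the 8 young fish to those published, each gene with scaling factors from the remaining 3. The best row was off by at most 6.85e-06 and the next best by at least 0.116. The other named genes are the 2 largest rises and 2 largest falls among called genes with a mean of at least 100 units in refed fish, no overlap and no identical row. Gene and marker lists need symbols and were not used. Members and lists were chosen with earlier results of these data known. Alternatives changed scale, pseudocount, low-value filter, fish, block, threshold, prior and identical rows (268 rows, of which 6 were called).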

Additional observations from a re-analysis of the deposited data

Results flagged for a closer look

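The age difference changed with feeding for 2632 genes by the test of the difference, ENSNFUG00015001249 (3.72 on the log2 scale, adjusted p = 0.0322 from limma) and ENSNFUG00015003575 (-1.68, adjusted p = 0.0464 from limma) among them. The fall of ENSNFUG00015003575 was called in fasted fish too (limma, log2 difference -1.93, adjusted p = 0.00846). Spike-in rows, which the comparisons on the deposited scale do not use, had a lower level in old than in young refed fish (log2 difference -0.274, exact permutation p = 0.0286), with 42 of 42 rows lower and row differences of -0.44 to -0.04. In 2 of 28 groups of 4 fish, 1 fish lay far from the others by Dixon's ratio, and chance gives about 1 in 20. These were old refed replicate 2 for ENSNFUG00015003575 (1310 units, ratio 0.889) and young refed replicate 1 for smad3b (208 units, ratio 0.876).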

How the results depend on the processing

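On log2 CPM 13188 genes were higher and 352 lower in old refed fish, the fasted contrast had 8756 calls and the difference between the contrasts 1406. Relative to the spike-in rows the numbers were 6560, 846, 6929 and 1440. At an adjusted p under 0.01 they were 1164, 1740, 303 and 740, and with a log2 fold change of at least 1 they were 666, 362, 236 and 508. With at least 10 CPM in 4 fish, 9319 genes were tested and 1468 rose. Refed rises found in the same direction in fasted fish were 93.7% on log2 CPM (89.1% over all genes), 92.9% on the spike-in scale (85.5%), 67.5% (48.0%) with upper quartile scaling, 73.4% (50.8%) with median of ratios and 61.8% (45.8%) with the 50 genes out of the total. Refed falls were 63.6% (10.9%) on log2 CPM and 42.6% (14.5%) on the spike-in scale, above the shares over all genes. With median of ratios they were 51.0% (49.2%) and with the 50 genes out of the total 59.3% (54.2%), both near those shares. The sign of smad4 turned on log2 CPM (0.50), on the spike-in scale (0.17) and without young refed replicate 2 (0.07, range -0.23 to 0.07 with 1 fish left out). The spike-in share turned to -0.868 percentage points without the 50 genes. With 1 refed fish left out, 1888 to 2314 genes rose, 2255 to 2724 fell, and 1771 to 2758 differed between the contrasts. Same-numbered old and young refed fish did not deviate together (r = -0.08 to 0.09 across genes), which gives no sign of pairing by number among refed fish. Refed and fasted fish of the same number were not compared, and a shared batch was not tested. With the replicate block, 2250 genes rose, 2630 fell and 1162 were called in fasted fish. The 4 largest changes and tfeb kept direction and an adjusted p under 0.05 in each fit that gave a value. The 4 were chosen by size in these same fish, so for them this adds no separate support. Depth limits low genes, and its estimate was lower in every old fish than in every young fish, refed and fasted alike.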
